A study of Mus musculus with 28 samples.

Results

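The Cyp2c subfamily of cytochrome P450 enzymes was followed in the livers of phenobarbital-exposed and control mice. The genes were 10 members of the subfamily: Cyp2c29, Cyp2c37, Cyp2c38, Cyp2c39, Cyp2c40, Cyp2c50, Cyp2c54, Cyp2c55, Cyp2c65 and Cyp2c70. Every array probe whose RefSeq accession maps to one of them was taken, which gave 13 of the 55681 distinct probes and 9 of the 37074 gene names or accessions on the array. Cyp2c40 had no probe by this rule and so has no array values here. Cyp2c54 had 3 probes, Cyp2c37 and Cyp2c38 had more than 1, and each of the other genes had a single probe. Where a gene had several, the probe with the highest mean one-colour signal was its lead probe, and counts of genes are counts of lead probes.

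Whole livers came from 6 male B6C3F1 mice, labelled as 42 days old, and had been stored in paraffin after formalin fixation, as blocks aged 16 years. The exposed group (3 mice) drank water with 0.05% phenobarbital for about 4 weeks, and the control group (3 mice) drank water alone. RNA of the same 6 mice was amplified, labelled and hybridised to Agilent mouse arrays in 4 sets, each on a slide of its own. The one-colour sets held 6 arrays, 1 per mouse, one set hybridised with 1X cDNA and the other with 1.5X. The two-colour sets held 8 arrays, again one set per input. In the 1X one, arrays 4 and 8 were left out and 6 arrays were used. On those left out, the description and the labels of the channels differ on which dye held the exposed mouse. On arrays 3, 5, 6 and 7, which were used, the description and the source name give different mouse numbers. The description was followed, so the two-colour 1X values by mouse rest on it. The 4 sets therefore measured the same mice again and are not independent groups of animals. One-colour levels are given as a percent of the array's 75th percentile over detected probes, and two-colour levels as normalised intensity. The percentages and intensities of different probes cannot be set against each other.

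Cyp2c enzymes are membrane-bound monooxygenases of the endoplasmic reticulum, mostly of hepatocytes, that oxidise drugs, steroids and polyunsaturated fatty acids such as arachidonic acid. They take electrons from the flavoprotein Por. Phenobarbital activates the constitutive androstane receptor (CAR, gene Nr1i3), which, together with the pregnane X receptor (PXR, gene Nr1i2), raises transcription of Cyp2b, Cyp3a and several Cyp2c genes through response elements in distal and proximal regulatory DNA.

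Most Cyp2c members were higher in the exposed livers, and none passed the test as lower. Cyp2c50, Cyp2c54 and Cyp2c55 passed the threshold (adjusted p under 0.05, limma with Benjamini-Hochberg adjustment over all probes tested) in both one-colour sets and at two-colour 1X, with Cyp2c55 changed most. Cyp2c37 passed in the one-colour 1.5X set and at two-colour 1X, Cyp2c39 in the one-colour 1.5X set alone (where 2 of 3 control arrays were not well above background), and Cyp2c29 and Cyp2c38 in the two-colour 1X set. Cyp2c65 was higher in exposed mice with a wide error and passed in none, and Cyp2c70 lay near 0 in all. In all, 7 of the 9 genes passed in at least 1 set. The sets measured the same mice, and shares of all probes are given by set below, not for this count.

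By set, 3 of the 9 members tested were called higher in the one-colour 1X set, against 0.13% of all probes tested there, and 5 of 9 in the one-colour 1.5X set, against 0.233%. Over the mean of both one-colour arrays of a mouse, 6 of 9 were called higher, against 0.626% of probes. At two-colour 1X it was 6 of the 7 members tested, against 3.28%. No member was called lower, against 0.00813%, 0.0298%, 0.104% and 3.15% of probes in the same order. The two-colour 1.5X set tested a single member, Cyp2c38, which was not called by limma (unadjusted p = 0.0115), and called 0% of its 1823 probes in either direction. The median change of the members tested was 1.52 on the log2 scale at one-colour 1X, 1.74 at one-colour 1.5X and 1.47 at two-colour 1X, beside 0.00829, -0.035 and -0.0118 over all probes tested. Every exposed mouse lay above every control for 8 of the 9 members tested in each one-colour set and over both inputs, against 7.39% of all probes tested at 1X, 8.87% at 1.5X and 8.77% over both. At two-colour 1X this held for 6 of 7, against 15.5%.

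A probe was tested where all arrays of at least 1 exposure group were well above background. Some members passed only through the exposed group, where they were high: Cyp2c39 at one-colour 1.5X (1 of 3 control arrays well above background), Cyp2c65 at one-colour 1X (2 of 3), both over both inputs (4 and 5 of 6), and Cyp2c38 at two-colour 1.5X (5 of 8 control channels). Among members well above background on all arrays of both groups, 3 of 8 were called at one-colour 1X, 4 of 8 at one-colour 1.5X, 5 of 7 over both inputs and 6 of 7 at two-colour 1X. These were 6 different genes over the separate sets of the same mice, since the single call of Cyp2c39 drops out. No share over all probes is given for these counts. With 3 mice a group the counts moved when a mouse was left out. The 3 members called in the one-colour 1X set became 0 without control 1 or phenobarbital 3 and 1 without any other mouse. The 5 of the one-colour 1.5X set became 2 without control 1, 1 without control 2, 3 without control 3, 6 without phenobarbital 1, 2 without phenobarbital 2 and 1 without phenobarbital 3. Over both inputs the 6 became 3 without control 1, 4 without control 2 or 3, 3 without phenobarbital 2 and 1 without phenobarbital 3. At two-colour 1X the count stayed between 4 and 6.

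**Figure D1:**
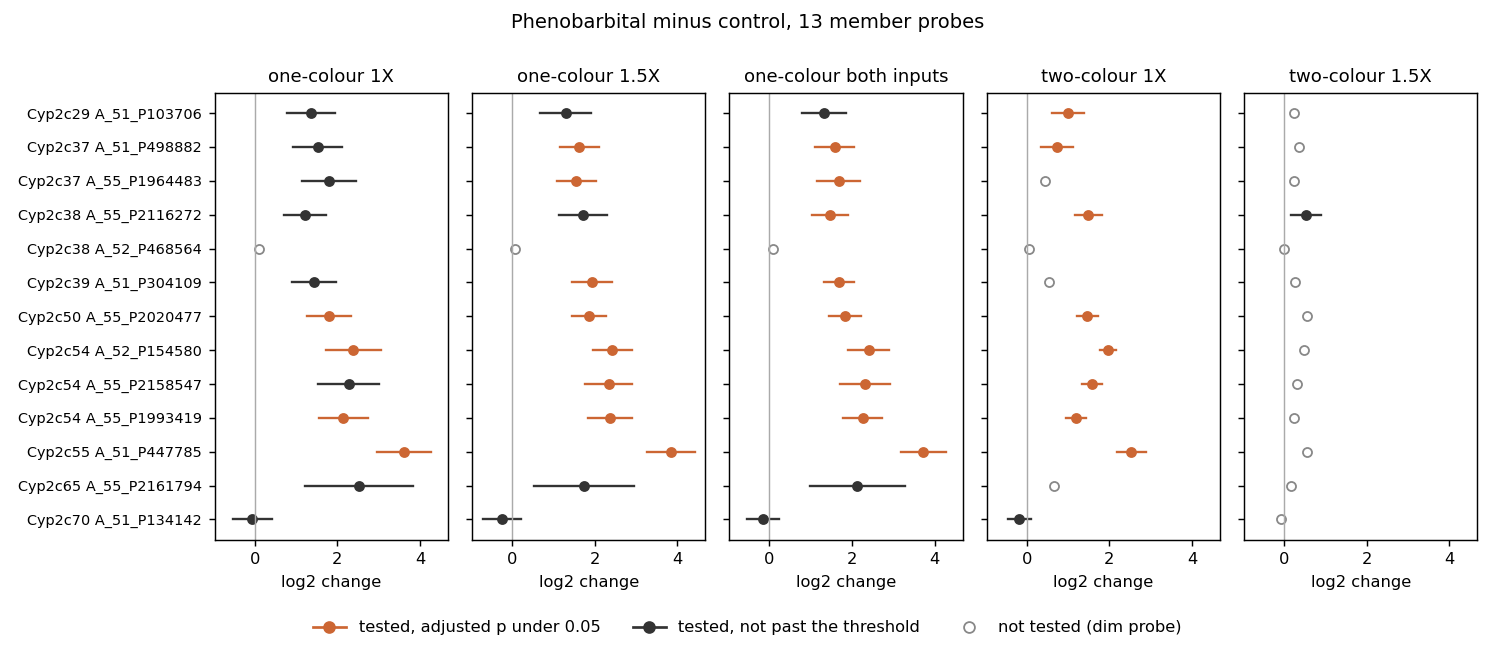
Log2 change (phenobarbital minus control, horizontal axis) of the 13 member probes in the 4 sets and over both one-colour inputs. Points are differences of group means (3 mice each), bars 95% intervals from limma, orange marks an adjusted p under 0.05, and open points were too dim to be tested. Cyp2c55 lies farthest to the right in the one-colour panels, and Cyp2c70 lies at 0.

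The 15 Cyp2c genes of the RefSeq table lie on chromosome 19, and the values over both one-colour inputs are given here in the order of that table. Starts of Cyp2c39 lie on either side of the Cyp2c38 start, and its place in this order rests on the lower. Cyp2c55, Cyp2c65, Cyp2c66, Cyp2c29, Cyp2c39 and Cyp2c38 follow each other at one end, and all 6 had higher means in exposed mice. Of these Cyp2c55, Cyp2c39 and Cyp2c38 passed the test, and Cyp2c65 (adjusted p = 0.121), Cyp2c66 (0.111) and Cyp2c29 (0.0559, limma) did not. Cyp2c39 was tested only through the exposed group, with 4 of 6 control arrays well above background. Cyp2c67, Cyp2c68, Cyp2c40 and Cyp2c69 come next, of which the 2 with a probe had lower means and did not pass (adjusted p = 0.126 and 0.256, limma). Cyp2c37, Cyp2c54 and Cyp2c50 follow, all called higher, and Cyp2c70 and Cyp2c23 close the order. Probe sequences were not used here, so how much each probe also binds a near-identical neighbour could not be checked, and values of close paralogs are uncertain for that reason.

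**Figure D2:**
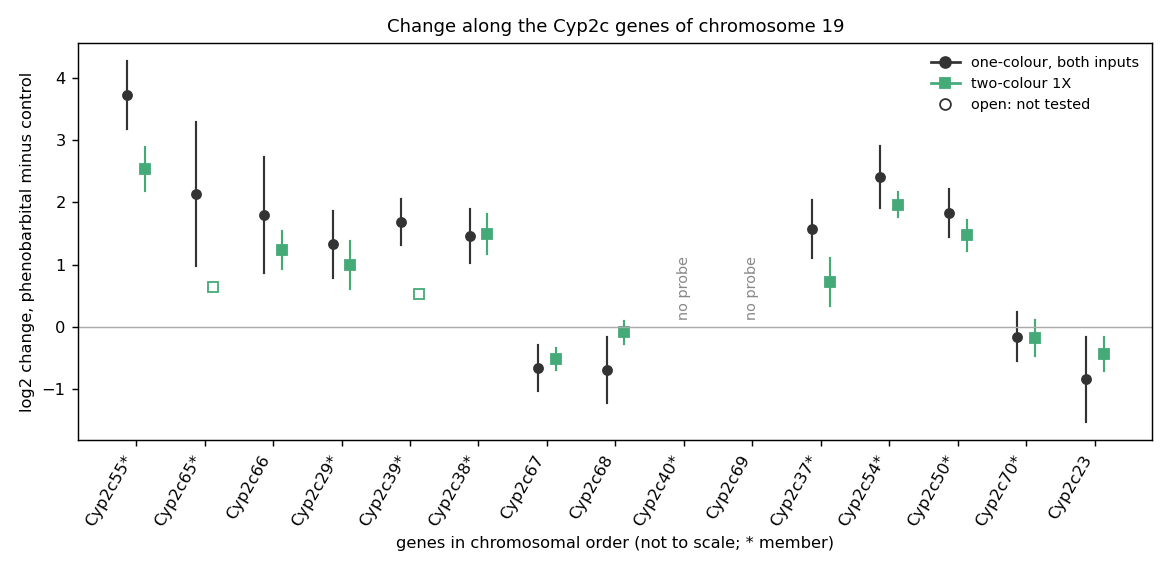
Log2 change of the lead probe of each Cyp2c gene (vertical axis), in chromosomal order but not to scale, for both one-colour inputs (circles) and the two-colour 1X set (squares), with 95% intervals from limma. Members are starred and open symbols were not tested. Cyp2c67 and Cyp2c68 lie below 0 between 2 runs of genes above it.

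The bases before the RefSeq start site (build GRCm38.p6) are shown for 6 members because some moved together and Cyp2c70 did not. Each stretch is 250 bases, 5′ to 3′ on the strand of the gene. Capitals mark the nuclear receptor half-sites AGGTCA and AGTTCA, the letters CAAAGTCC of the kind bound by HNF4A (a liver nuclear receptor), and the TATA box letters TATAAA, each on either strand. The positions are chr19:39006769-39007018 (plus strand) for Cyp2c55, chr19:39060756-39061005 (plus) for Cyp2c65, chr19:39286835-39287084 (plus) for Cyp2c29, chr19:39992174-39992423 (plus) for Cyp2c37, chr19:40089429-40089678 (plus) for Cyp2c50 and chr19:40187287-40187536 (minus) for Cyp2c70.
Cyp2c55: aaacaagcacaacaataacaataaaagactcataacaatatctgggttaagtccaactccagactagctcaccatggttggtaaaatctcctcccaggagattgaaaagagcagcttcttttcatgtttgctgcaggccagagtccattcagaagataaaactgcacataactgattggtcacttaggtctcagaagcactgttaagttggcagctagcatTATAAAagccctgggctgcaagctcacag
Cyp2c65: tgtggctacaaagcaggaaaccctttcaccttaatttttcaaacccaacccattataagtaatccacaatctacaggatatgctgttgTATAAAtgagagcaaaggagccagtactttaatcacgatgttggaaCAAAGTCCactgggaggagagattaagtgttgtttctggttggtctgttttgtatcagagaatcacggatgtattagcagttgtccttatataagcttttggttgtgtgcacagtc
Cyp2c29: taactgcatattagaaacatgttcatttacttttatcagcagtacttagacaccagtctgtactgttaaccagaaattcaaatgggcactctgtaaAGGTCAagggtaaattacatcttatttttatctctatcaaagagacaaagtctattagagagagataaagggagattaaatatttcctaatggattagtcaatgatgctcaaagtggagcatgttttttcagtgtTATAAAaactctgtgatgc
Cyp2c37: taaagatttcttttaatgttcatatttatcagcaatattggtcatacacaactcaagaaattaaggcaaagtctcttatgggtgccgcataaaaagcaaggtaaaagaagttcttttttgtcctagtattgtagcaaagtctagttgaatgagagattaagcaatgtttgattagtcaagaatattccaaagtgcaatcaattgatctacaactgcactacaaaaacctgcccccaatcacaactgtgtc
Cyp2c50: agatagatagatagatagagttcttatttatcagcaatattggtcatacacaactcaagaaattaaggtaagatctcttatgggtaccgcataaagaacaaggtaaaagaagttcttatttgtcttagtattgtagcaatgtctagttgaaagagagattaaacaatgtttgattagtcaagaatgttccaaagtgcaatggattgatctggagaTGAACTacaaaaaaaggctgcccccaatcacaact
Cyp2c70: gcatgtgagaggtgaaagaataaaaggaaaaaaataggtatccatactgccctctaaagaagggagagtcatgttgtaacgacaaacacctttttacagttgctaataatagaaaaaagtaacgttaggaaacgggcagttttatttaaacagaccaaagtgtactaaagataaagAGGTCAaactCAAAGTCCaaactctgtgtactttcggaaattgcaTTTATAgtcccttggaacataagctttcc

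Of the 13 Cyp2c genes with a promoter entry, 7 held CAAAGTCC in these 250 bases, against 1.2% of all 32851 promoter entries. Cyp2c54 had no promoter entry, so its upstream bases were not searched. They were Cyp2c65, Cyp2c66, Cyp2c67, Cyp2c68, Cyp2c40, Cyp2c69 and Cyp2c70. Among them were genes with higher values in exposed mice (Cyp2c65, Cyp2c66), with lower values (Cyp2c67, Cyp2c68) and near 0 (Cyp2c70). AGGTCA was found before Cyp2c29, Cyp2c39 and Cyp2c70 (14% of all entries hold it) and AGTTCA before Cyp2c39, Cyp2c50, Cyp2c40 and Cyp2c69 (11.8%). The matches of Cyp2c39 stood before separate starts of the gene, AGGTCA in the window that begins at base 39347096 and AGTTCA in the one that begins at 39510572. In Cyp2c70 AGGTCA stood 74 to 69 bases before the start, next to CAAAGTCC at 64 to 57. None of the 13 held a pair of these half-sites spaced by 4 bases in the same orientation (searched on both strands). A pair of AGGTCA was held by 0.0152% of entries, a pair of AGTTCA by 0.00913%, and a mixed pair in either order by 0%. TATAAA was found in 7 of the 13 (12.4% of entries), Cyp2c55 and Cyp2c29 among them. The window holds no distal element, and no match says only that these letters are not in it.

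The upstream bases of neighbours were often close to each other. Where a gene had more than 1 promoter entry, as Cyp2c39 did, only its first entry was aligned. In a global alignment (match 1, mismatch and gap -1) those of Cyp2c37 and Cyp2c50 were 84.6% identical, those of Cyp2c65 and Cyp2c66 74.6%, those of Cyp2c38 and Cyp2c39 76%, and those of Cyp2c29 and Cyp2c39 74.8%. The median over the 78 pairs was 55.7%. The genes of each of these 4 pairs had means that differed in the same direction in exposed mice, though not all passed the test. Most Cyp2c genes with a probe had higher means, so pairs of low identity often agreed in direction as well. Cyp2c55 and Cyp2c37, 56.2% identical, were both higher. The upstream bases of Cyp2c67 were 64.9% identical to Cyp2c37 and 63.1% to Cyp2c50, and there the means differed in opposite directions. Whether identity and direction go together was not tested. The closest pair of all, Cyp2c68 and Cyp2c69 at 91.4%, could not be compared because Cyp2c69 had no probe.

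Cyp2c55, an arachidonic acid hydroxylase known from both liver and the intestinal tract, had the largest change of the members tested in both one-colour sets and at two-colour 1X. In the one-colour 1X set the control mice 1, 2 and 3 read 21.0, 17.1 and 27.5 and the exposed mice 1, 2 and 3 read 347, 197 and 262 (percent of the 75th percentile). At 1.5X the controls read 13.6, 15.8 and 21.1 and the exposed mice 308, 218 and 199. The lowest exposed mouse was several times above the highest control in both sets. The rise was 12.2-fold (log2 3.61, 95% interval 2.96 to 4.26, adjusted p = 0.00644, limma) at 1X and 14.3-fold (log2 3.84, 3.26 to 4.42, adjusted p = 0.00364) at 1.5X. At two-colour 1X the intensities were 113, 144 and 120 in controls and 742, 875 and 581 in exposed mice, again without overlap, a 5.78-fold rise (log2 2.53, 2.18 to 2.88, adjusted p = 8.32e-05, limma).

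Cyp2c54, Cyp2c50 and Cyp2c37, neighbours on the chromosome, have products that epoxidise or hydroxylate arachidonic and linoleic acid. The lead probe of Cyp2c54 (A_52_P154580) read 77.3, 111 and 53.2 in controls and 446, 377 and 390 in exposed mice at 1X. At 1.5X it read 84.7, 77.6 and 58.6 against 425, 350 and 405. Control 3 was the lowest of the controls in both sets, and no exposed mouse came near the controls. The rise was 5.24-fold (log2 2.39, 95% interval 1.73 to 3.05, adjusted p = 0.0393, limma) at 1X and 5.39-fold (log2 2.43, 1.96 to 2.90, adjusted p = 0.00701) at 1.5X. On the two-colour 1X arrays the exposed mice lay close together at 907, 936 and 916, against 250, 250 and 211 in controls (3.90-fold, log2 1.96, adjusted p = 2.66e-05, limma).

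The other probes of Cyp2c54 gave similar changes. Probe A_55_P2158547 differed by 2.27 on the log2 scale at 1X (adjusted p = 0.0624, not past the threshold in limma), and rose by 2.34 at 1.5X (adjusted p = 0.0223) and 1.57 in the two-colour 1X set (adjusted p = 0.000149). Probe A_55_P1993419 rose by 2.14 at 1X (adjusted p = 0.04), 2.37 at 1.5X (adjusted p = 0.0144) and 1.19 in the two-colour 1X set (adjusted p = 0.000638, limma). The 3 probes thus lay close to each other in the one-colour sets and spread more widely in the two-colour 1X set.

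Cyp2c50 read 161, 166 and 117 in controls and 601, 438 and 505 in exposed mice at 1X. At 1.5X it read 104, 103 and 82.2 against 325, 359 and 360. All exposed mice were above all controls, and the exposed mice agreed more closely at 1.5X. The rise was 3.49-fold (log2 1.80, 95% interval 1.27 to 2.34, adjusted p = 0.0441, limma) at 1X and 3.63-fold (log2 1.86, 1.46 to 2.26, adjusted p = 0.0120) at 1.5X. The two-colour 1X intensities were 269, 251 and 237 in controls and 783, 725 and 599 in exposed mice, without overlap and with a 2.77-fold rise (log2 1.47, adjusted p = 0.000269, limma).

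For Cyp2c37 the lead probe (A_51_P498882) read 60.6, 63.2 and 43.1 in controls and 201, 128 and 151 in exposed mice at 1X, and 26.4, 22.5 and 18.9 against 81.0, 68.7 and 59.9 at 1.5X. The groups did not overlap in either set. The change was 2.87-fold at 1X (log2 1.52, 95% interval 0.93 to 2.11, adjusted p = 0.107, limma), short of the threshold, and the rise was 3.10-fold at 1.5X (log2 1.63, 1.16 to 2.11, adjusted p = 0.0384). At two-colour 1X where controls read 109, 124 and 105 and exposed mice 223, 208 and 139, the rise was 1.65-fold (log2 0.72, 0.34 to 1.11, adjusted p = 0.0421, limma). The other probe, A_55_P1964483, differed by 1.79 on the log2 scale at 1X (adjusted p = 0.0844) and rose by 1.56 at 1.5X (adjusted p = 0.0427, limma).

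Cyp2c29, Cyp2c38 and Cyp2c39 form another run of neighbours. Cyp2c29, an abundant liver enzyme that makes epoxides of arachidonic acid and a long-known phenobarbital-inducible P450, read 182, 129 and 108 in controls and 400, 346 and 309 in exposed mice at 1X. At 1.5X it read 75.4, 57.7 and 49.6 against 187, 159 and 108. Phenobarbital 3 had the lowest value of the exposed mice in each set, and the groups did not overlap. The difference was 2.56-fold at 1X (log2 1.36, 95% interval 0.78 to 1.94) and 2.46-fold at 1.5X (log2 1.3, 0.68 to 1.91), with adjusted p of 0.133 and 0.113 (limma), neither past the threshold. On the two-colour 1X arrays controls read 283, 237 and 225 and exposed mice 558, 579 and 369, a 1.99-fold rise (log2 1.00, 0.60 to 1.39, adjusted p = 0.0124, limma).

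Cyp2c38, another arachidonic acid epoxygenase, read 290, 314 and 233 in controls and 540, 653 and 737 in exposed mice at 1X, and 154, 103 and 140 against 335, 427 and 542 at 1.5X. Here phenobarbital 3, the lowest exposed mouse for Cyp2c29, was the highest. The groups did not overlap, with differences of 2.31-fold (log2 1.21, 95% interval 0.70 to 1.72, adjusted p = 0.133, limma) and 3.26-fold (log2 1.71, 1.13 to 2.29, adjusted p = 0.0581). In the two-colour 1X set controls read 410, 357 and 364 and exposed mice 968, 911 and 1330, a 2.81-fold rise (log2 1.49, 1.17 to 1.81, adjusted p = 0.000963, limma). Over the mean of both one-colour inputs the rise was 2.74-fold (adjusted p = 0.0209). The second probe of the gene, A_52_P468564, was well above background on none of 44 array channels, so only the lead probe speaks for Cyp2c38.

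Cyp2c39, known for the hydroxylation of retinoic acid, read 94.6, 112 and 83.1 in controls and 213, 315 and 260 in exposed mice at 1X, without overlap (2.71-fold, log2 1.44, 95% interval 0.91 to 1.97, adjusted p = 0.0880, limma). At 1.5X the same mice read only 4.09, 2.89 and 4.21 against 12.4, 15.1 and 14.6, again without overlap, but only 1 of 3 control arrays and 3 of 3 exposed arrays were well above background. The difference of the measured means, 3.80-fold (log2 1.93, adjusted p = 0.0258, limma), therefore rests on controls near background, and the probe was tested only because the exposed mice were above it. The effect was 0.49 larger at 1.5X than at 1X on the log2 scale (95% interval -0.16 to 1.14, adjusted p = 0.876, limma). In the two-colour 1X set the probe was well above background in 0 of 6 control channels and 3 of 6 exposed channels and was not tested. The exposed mice, at 107, 109 and 110 against 75, 75.9 and 75.2, were at least 1.4-fold higher there, a bound taken with dim values raised to the lowest signal called well above background on their array.

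Cyp2c65, a gene best known from the stomach and intestine, was well above background on 2 of 3 control arrays at 1X and on all others of both one-colour sets. At 1X it read 2.12, 8.28 and 11 in controls and 43.8, 26.4 and 31.4 in exposed mice, and at 1.5X 4.86, 9.50 and 10.4 against 42.2, 12 and 35.4. Phenobarbital 2 came close to the controls at 1.5X, and control 1 lay below the other controls in both sets. The differences of 5.74-fold (log2 2.52, 95% interval 1.21 to 3.84, adjusted p = 0.220, limma) and 3.34-fold (log2 1.74, 0.53 to 2.96, adjusted p = 0.223) did not pass the threshold. Because Cyp2c55 and Cyp2c65 are also genes of the gut, intestinal epithelium markers were read in the same livers: of 12 with a probe 10 were detected, and Cdx2 and Reg3b were not. Their summed level at 1X was 1170 to 2750 in controls and 2220 to 3230 in exposed mice. None of the 9 tested passed in limma in either one-colour set. Their median log2 change was 0.542 at 1X and 0.608 at 1.5X, beside 0.00829 and -0.035 over all probes tested. The part of these markers in the values of both genes was not tested.

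Cyp2c70, the enzyme that makes muricholic acids from chenodeoxycholic acid in mice, read 550, 648 and 635 in controls and 685, 503 and 581 in exposed mice at 1X, with overlapping groups. At 1.5X it read 461, 453 and 505 against 492, 390 and 325, and in the two-colour 1X set 1390, 1470 and 1530 against 1520, 1330 and 1070. Phenobarbital 1 was the highest exposed mouse in each set and lay within or above the controls. The change was -0.06 on the log2 scale at 1X (95% interval -0.54 to 0.42, adjusted p = 0.970, limma), -0.25 at 1.5X (-0.72 to 0.21, adjusted p = 0.586) and -0.18 in the two-colour 1X set (-0.46 to 0.11, adjusted p = 0.417). A rise of the size seen for the neighbouring Cyp2c50 lay outside all 3 intervals.

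**Figure D3:**
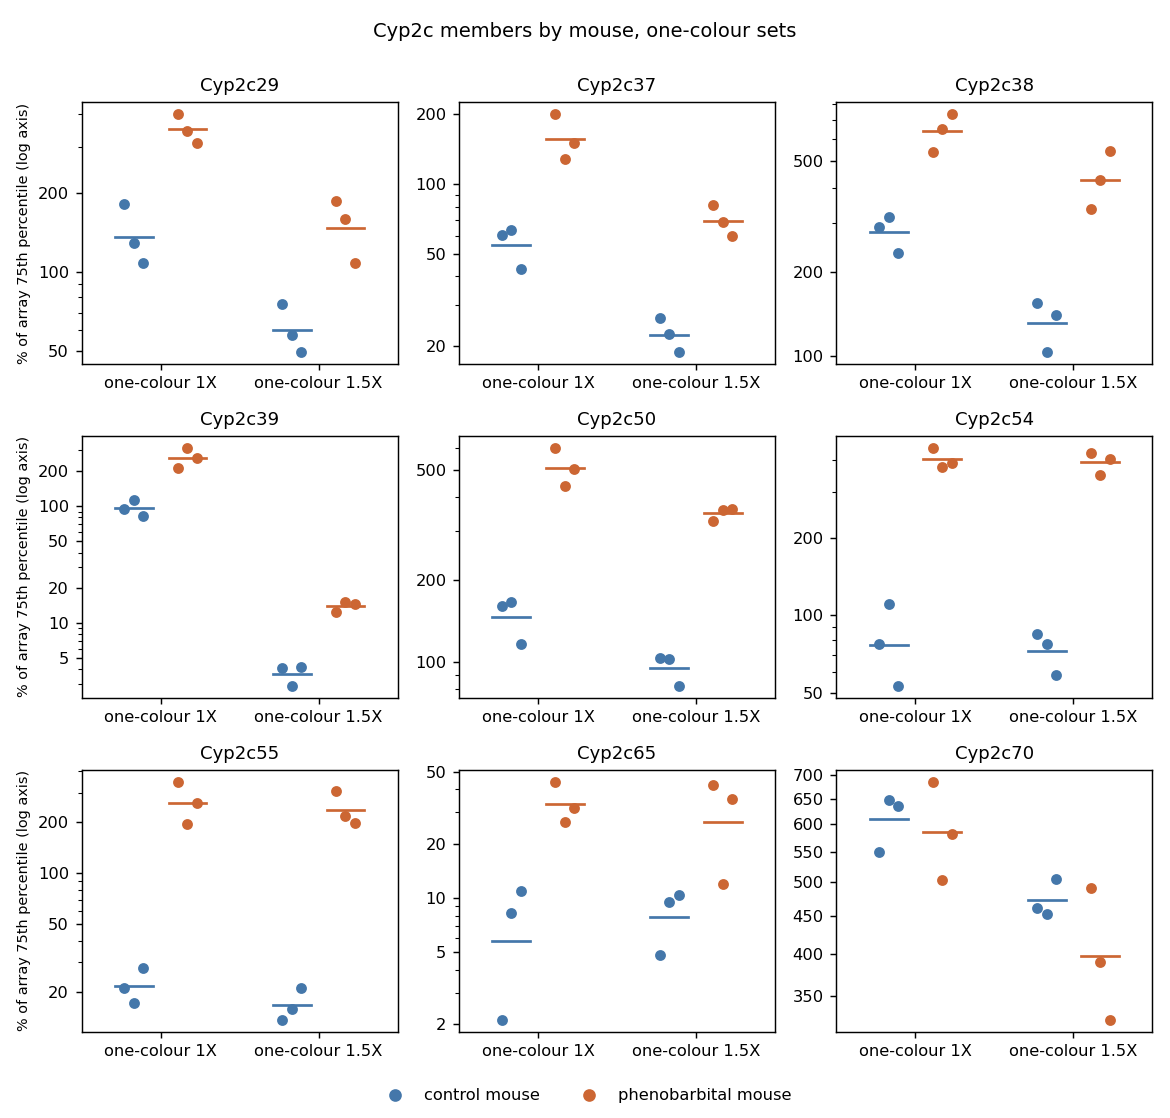
Level of the lead probe of each member in each mouse (vertical axis, percent of the array's 75th percentile, log axis) in the one-colour 1X and 1.5X sets. Points are mice, 3 a group, and lines are means of the log values. Exposed mice lie above all controls for every gene shown but Cyp2c70, and Cyp2c39 lies far lower at 1.5X.

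As a percent of the 75th percentile, the level of Cyp2c39 was much lower in the one-colour 1.5X set than at 1X. The detected probes behind that percentile were chosen for each set alone, so differences between inputs depend on this scale. Before scaling, exposed mice 1, 2 and 3 gave Cyp2c39 signals of 1207, 1626 and 1113 at 1X. At 1.5X they gave 247.6, 193.4 and 156.7. For the lead probe of Cyp2c54 the unscaled signals were higher at 1.5X, at 8486, 4473 and 4347 against 2523, 1945 and 1672. The one-colour differences that follow use scaled levels. In the 3 exposed mice, all well above background in both sets, the 1.5X level minus the 1X level was -4.21 ± 0.15 (SD, n = 3) on the log2 scale, or 18.5-fold lower. In the controls it was -4.70 ± 0.51 (SD, n = 3), where only 1 of 3 was well above background at 1.5X and the value depends on signals near background. Probe A_55_P1964483 of Cyp2c37 stood at -2.79 ± 0.19 (SD, n = 6), or 6.93-fold lower, against -1.24 ± 0.20 (SD, n = 6) for the other probe of that gene. The lead probes of Cyp2c54, Cyp2c55 and Cyp2c65 differed by -0.06, -0.26 and 0.05. Of 24607 probes, 0.894% stood as low as Cyp2c39 over all 6 mice. The shares were 13.5% for probe A_55_P1964483 and 43.9% for the other Cyp2c37 probe. For the lead probes of Cyp2c54, Cyp2c55 and Cyp2c65 they were 91.7%, 87% and 93.8%, so most probes on the array stood lower than these. In the two-colour sets the order by input was the opposite: Cyp2c39 intensities were 75 to 110 at 1X and 195 to 317 at 1.5X. The one-colour 1X and two-colour 1.5X slides were scanned in 1 session and the remaining slides in another, and within a format the input cannot be told apart from the slide or the session.

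The phenobarbital effect itself was not found to differ between the one-colour inputs. None of the 12 member probes tested in both sets passed, and limma called 0% of the 16423 probes. The smallest unadjusted p among them was 0.0954 for Cyp2c38, whose effect was 0.50 (95% interval -0.11 to 1.11) larger at 1.5X on the log2 scale. For Cyp2c55 the difference was 0.23 (-0.31 to 0.77) and for Cyp2c54 0.04 (-0.51 to 0.59), and differences within those bounds were not excluded.

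The change was lower in two-colour than in one-colour arrays at 1X for 8 of the 9 member probes tested in both, if values alone are compared, but no difference passed the test, which called 0.0199% of 10038 probes. Cyp2c55 was 1.08 lower (95% interval -1.84 to -0.32, unadjusted p = 0.0111, adjusted p = 0.998, limma) and Cyp2c37 0.80 lower (-1.34 to -0.25, unadjusted p = 0.00915, adjusted p = 0.998). Cyp2c38 was the exception at 0.28 (-0.16 to 0.73). The formats were also processed differently, with an offset of 50 in the main two-colour values alone. Format and processing can therefore not be told apart. Over the alternative settings tried, the two-colour 1X change of Cyp2c55 ran from 1.64 to 3.56 and that of Cyp2c37 from 0.515 to 1.45. Their one-colour 1X changes ran from 3.02 to 3.82 and from 1.23 to 1.67. At 1.5X only Cyp2c38 could be compared, with an effect smaller by 1.18 in the two-colour set (95% interval -1.79 to -0.57, adjusted p = 0.528, limma), where 0.056% of 1787 probes were called.

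The two-colour arrays also gave the ratio of an exposed to a control mouse within each array. In the 1X set all 6 arrays used gave higher values in the exposed mouse for Cyp2c29, Cyp2c37, Cyp2c38, Cyp2c39, Cyp2c50, Cyp2c54, Cyp2c55 and Cyp2c65, by their lead probes. These arrays held the same 3 exposed and 3 control mice, so they are not independent. Cyp2c39 and Cyp2c65 were too dim to be tested there. They were well above background in 0 and 1 of 6 control channels and in 3 and 4 of 6 exposed channels. For Cyp2c55 the log2 ratio ran from 2.07 to 2.93 with a median of 2.55, and its mean was 2.54 with the exposed mouse in Cy5 and 2.52 with it in Cy3. For Cyp2c70 it ran from -0.67 to 0.12, with 2 of 6 arrays above 0. On the left-out arrays, by dye alone, Cyp2c55 stood at 2.65 (log2 Cy5 over Cy3) on array 4 and at -2.62 on array 8. With the dyes of the channel labels 6 members were called in the set, and with those of the description 0. The deposited log ratios equalled the scanner's for 100% of spots on arrays 1, 4, 5 and 7. On arrays 2, 3, 6 and 8 they equalled them with the sign turned. Of the arrays used, those turned had the exposed mouse in Cy3 and those not turned had it in Cy5. The deposited ratios of arrays 4 and 8 thus follow the dyes of the channel labels.

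In the two-colour 1.5X set the median ratio of each of the 8 members above 0 at 1X was lower than there. The lead probes of Cyp2c37, Cyp2c38 and Cyp2c50 were higher in the exposed mouse on 8 of 8 arrays, with median log2 ratios of 0.30, 0.43 and 0.52. Cyp2c55 was higher on 7 of 8, from -0.08 to 1.08. Cyp2c55 read 144, 176 and 146 in controls and 259, 186 and 240 in exposed mice, and Cyp2c38 read 317, 305 and 321 against 443, 469 and 446. The groups did not overlap for these genes, but they did for Cyp2c29, Cyp2c65 and Cyp2c70. Only 2.97% to 7.41% of all probes were well above background in the Cy5 channel of this set, against 34.4% to 42.8% in Cy3. Of the 12 member probes that were detected at all, 4 (both Cyp2c54 probes other than the lead probe, Cyp2c65 and probe A_55_P1964483 of Cyp2c37) were above background in no Cy5 channel there. With Cy3 values alone, 4 of 9 members were called higher, against 0.0996% of the 20076 probes tested in that way.

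**Figure D4:**
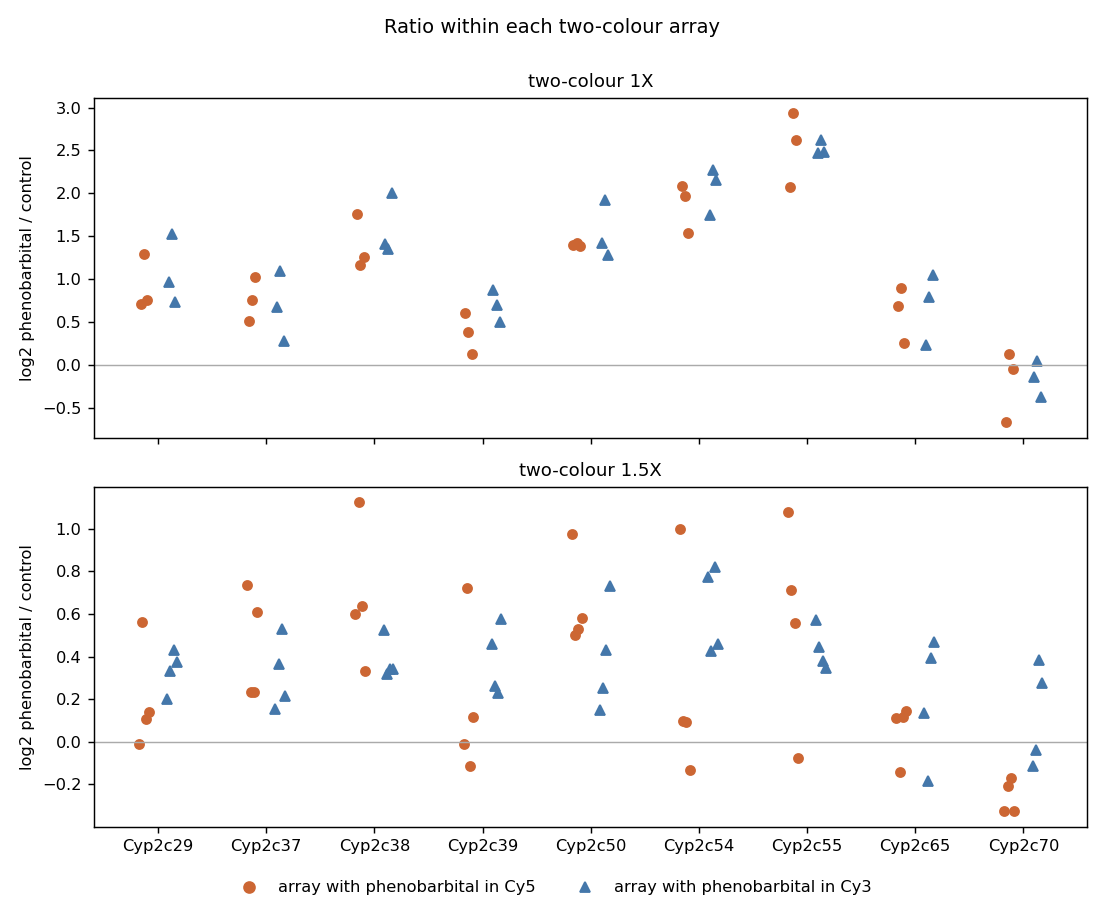
Log2 ratio of the exposed over the control mouse (vertical axis) on each two-colour array for the lead probe of each member, with 6 arrays at 1X and 8 at 1.5X. Circles have the exposed mouse in Cy5 and triangles in Cy3, and the panels have different scales. Cyp2c55 lies between 2.07 and 2.93 at 1X, and Cyp2c70 lies on both sides of 0.

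**Figure D5:**
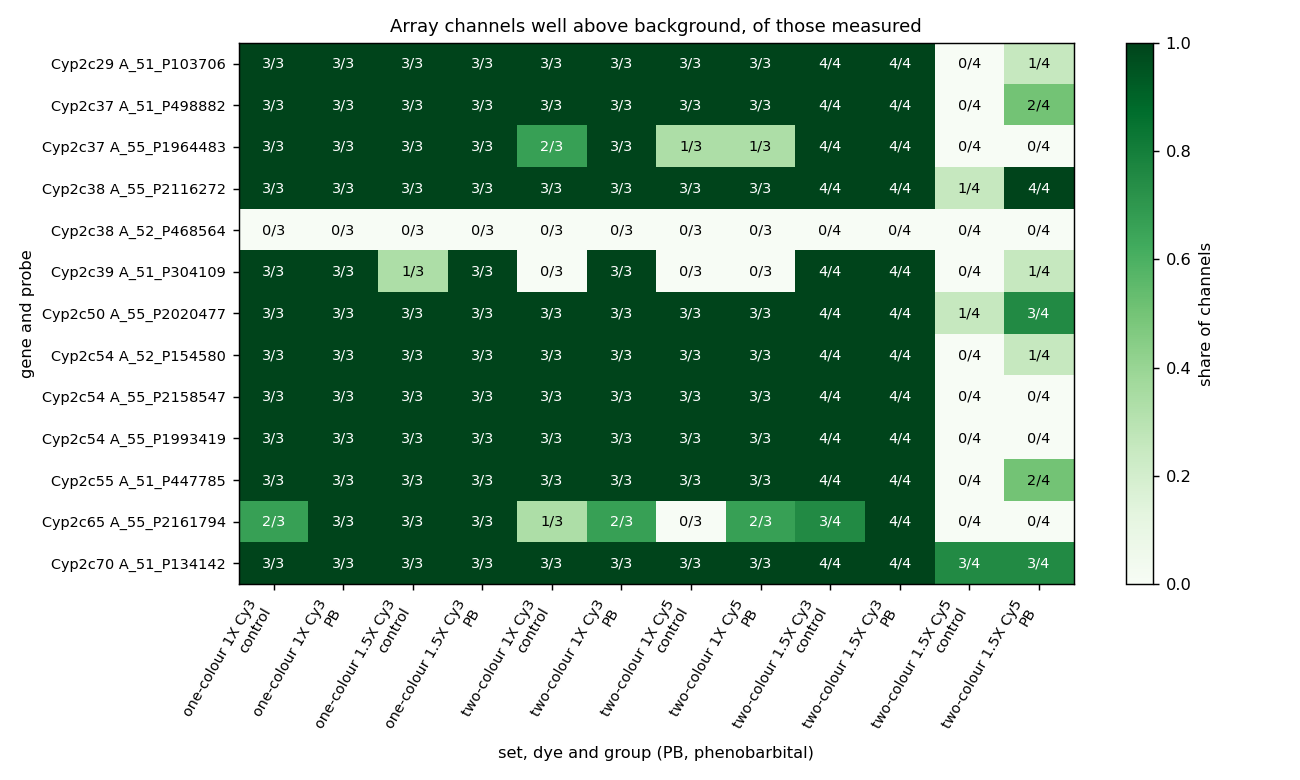
Number of array channels in which each member probe was well above background, of those measured, by set, dye and group. Darker green is a larger share. The Cy5 channel of the two-colour 1.5X set is nearly empty, and probe A_52_P468564 of Cyp2c38 is at 0 throughout.

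No member spot was saturated. The scanner flagged 12 spots of member probes as outliers, all of the Cyp2c29 probe, which is printed 10 times on each array, and they were left out.

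Among the other Cyp2c genes, 4 had a probe: Cyp2c66, Cyp2c67, Cyp2c68 and Cyp2c23 (which the table also lists as Cyp2c44). None was called in a one-colour set. Cyp2c66, next to Cyp2c65, read 43.9, 100 and 139 in controls and 400, 216 and 291 in exposed mice at 1X, a 3.45-fold difference (adjusted p = 0.260, limma), and rose 2.37-fold in the two-colour 1X set (log2 1.24, adjusted p = 0.00180). Cyp2c67 read 264, 261 and 292 against 205, 164 and 174 at 1X (log2 -0.59, adjusted p = 0.446), and its intensities of 563, 520 and 569 against 408, 374 and 376 in the two-colour 1X set were a fall by 0.51 on the log2 scale (adjusted p = 0.00730, limma). The other probe of Cyp2c67 fell by 0.54 there (adjusted p = 0.0257). Cyp2c68 (log2 -0.86 at 1X, adjusted p = 0.463) and Cyp2c23 (log2 -0.71, adjusted p = 0.626) were not called in any set.

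Of the CAR and PXR target oxidases outside the subfamily, 6 of the 14 tested were called higher over both one-colour inputs, against 0.626% of all probes. At two-colour 1X 9 of 10 were, against 3.28%. In the separate one-colour sets it was 4 of 17 at 1X, against 0.13%, and 2 of 14 at 1.5X, against 0.233%. None was called lower. Cyp2b10, the reference CAR target, was well above background on no control array and on all exposed arrays of both one-colour sets, and was at least 30.8-fold higher at 1X and at least 18.1-fold at 1.5X. Cyp3a44 was likewise at least 4.68-fold higher at 1X. Both were tested through the exposed group alone, so their calls are no independent support. Of 12 genes for P450 electron donors and heme supply, 1 was called higher over both inputs, against 0.626% of all probes. At two-colour 1X 3 were, against 3.28%. Por, the electron donor, read 160, 170 and 180 in controls and 853, 1080 and 844 in exposed mice at 1X (log2 2.44, adjusted p = 0.00644, limma), and Alas1, the first enzyme of heme synthesis, rose by 1.47 in the two-colour 1X set (adjusted p = 5.55e-05). Ephx1, an epoxide hydrolase, rose by 0.86 there (adjusted p = 0.0233).

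Of 12 receptors and factors known at Cyp2c genes, none was called over both one-colour inputs. In the two-colour 1X set 3 of the 11 tested were called higher, against 3.28% of all probes, and 1 lower, against 3.15%. Nr1i2, the gene of PXR, rose by 0.67 there (adjusted p = 0.00828, limma). Nr1i3, the gene of CAR, differed by -0.27 over both inputs (adjusted p = 0.610) and by 0.06 at two-colour 1X (adjusted p = 0.691, limma), and is named for its role and after its values were seen. Of 13 other Cyp2 family P450s of liver, none of the 12 tested over both inputs was called. Of the 11 tested in the two-colour 1X set, Cyp2u1 alone fell (log2 -0.59, adjusted p = 0.00575, limma), against 3.15% of all probes.

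The tissue label was checked on marker genes. All 10 hepatocyte markers with a probe were detected, with a summed level of 71200 to 90100 (percent of the 75th percentile) in controls and 68100 to 83400 in exposed mice at 1X. Acinar pancreas markers were detected in both groups at 21800 to 84000 and 14700 to 84000. Pericentral hepatocyte markers summed to 7230 to 10300 in controls and 7770 to 9100 in exposed mice. The median log2 change of the markers tested at one-colour 1X was -0.132 for hepatocytes, -0.887 for acinar pancreas and -0.162 for pericentral hepatocytes. None of them was called there. The part of these markers in the Cyp2c differences was not tested, and in whole liver fewer cells of a type and less RNA per cell cannot be told apart.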

How the data were processed

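The members and gene lists were chosen with earlier results of these data known. Per the file headers, the authors deposited scanner output of Agilent Feature Extraction 11.0.1.1 with signal intensity per spot and flags, and a table of processed values that holds log10 ratios for two-colour arrays; the deposited table served as an alternative. RNA was extracted with a Qiagen FFPE kit, amplified with Sigma WTA2 and labelled with KREAtech ULS dyes, per the labels' protocols. One-colour processed signals were taken as log2 minus the 75th percentile of probes flagged as well above background on each of the set's arrays. Two-colour median signals were corrected by normexp (offset 50), loess (span 0.3) and Aquantile, and a mouse's value is the mean of its Cy3 and Cy5 means. Outlier spots were left out and replicate spots averaged. Probes so flagged throughout 1 or both exposure groups were tested with limma 3.58.1 (R 4.3.3), with Benjamini-Hochberg adjustment over all tested and a threshold of 0.05. The method was tested on simulated data. All member probes are named, with at most 4 genes of each other list, by the largest change among those tested, plus Cyp2b10. Of 62976 spots per array, 3671 controls were dropped, and 44.2% to 51.9% (one-colour 1X) and 28.1% to 38.5% (1.5X) of probes were well above background. The labels of 2 two-colour 1X arrays conflict on the dyes, and on others of that set the description and source name give different mouse numbers; the description was used. Mice per group (3) limit the precision. Promoters came from RefSeq (GRCm38.p6) for 9 of 10 members, all but Cyp2c54.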

Additional observations from a re-analysis of the deposited data

How the results depend on the processing

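Of 549 values recomputed for single members, 548 kept their direction; the change of Cyp2c70 at one-colour 1X turned from -0.06 to 0.0503 on the log2 scale without phenobarbital replicate 2, and the cause was not tested. In the one-colour 1X set, the 3 members called became 5 with normexp and quantile normalization, 1 with no filter on dim probes (more probes tested) and 0 to 1 without 1 mouse. In the one-colour 1.5X set, the 5 became 2 with no scaling between arrays, 1 with no filter and 1 to 6 without 1 mouse. Over both inputs the 6 became 1 to 6 without 1 mouse. Without scaling the median of all probes moved to -0.285 at 1X, -0.172 at 1.5X and -0.241 over both. With the mouse number as a replicate block, 0 members were called at one-colour 1X, 0 at one-colour 1.5X and 5 over both inputs. In deviations from the group mean, same-numbered mice correlated at 0.0488, -0.104 and 0.251, and mice of different numbers at -0.239 to 0.218. With 3 mice a group these values are tied to each other and cannot settle whether the numbers pair the mice. In the two-colour 1X set, the 6 became 0 with arrays 4 and 8 used with the dyes of the description. The deposited ratios of these arrays do not follow those dyes. Without 1 mouse the 6 became 4 to 6. In the two-colour 1.5X set, the 0 became 4 with Cy3 values only, where 9 members were tested. The causes of these changes in counts were otherwise not tested. Testing only probes that were well above background in every mouse of both groups, an alternative chosen after seeing the data, gave 3, 5, 6 and 6 calls at one-colour 1X, one-colour 1.5X, over both inputs and at two-colour 1X; it tested no member at two-colour 1.5X.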
